A study of Homo sapiens and Mus musculus with 15 samples.

Results

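Bortezomib resistance was derived separately in a mouse and a human myeloma line, and 32 genes lost at least 50% of their naive level in both. They were chosen from the read counts themselves. CPM values (reads of a gene per 1000000 reads on all genes of the library) were averaged over the 3 libraries of a group, symbols were matched between species without regard to case, and a gene was taken if its naive mean reached 2 CPM in both lines and its bortezomib-resistant mean was at most 0.5 of naive in both. Of 15494 matched symbols, 7582 reached 2 CPM in both naive lines. Of these, 202 (2.66%) met the 0.5 limit in 5TGM1, 557 (7.35%) met it in 8226 and 32 (0.422%) met it in both. The 32 genes are thus 15.8% of the 5TGM1 list and 5.75% of the 8226 list. A shared symbol is not proof of orthology.

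The mouse line 5TGM1 descends from a spontaneous plasma cell tumour of C57Bl/KaLwRij mice, and RPMI-8226, called 8226 here, from a human plasma cell myeloma. RNA was sequenced from naive 5TGM1, bortezomib-resistant 5TGM1 kept in 20 nM bortezomib, naive 8226, bortezomib-resistant 8226 kept in 10 nM bortezomib and carfilzomib-resistant 8226 kept in 10 nM carfilzomib, with 3 libraries each. All groups shared the same medium, and the resistant lines were drug-free for 5 days before extraction. Each resistant group is 1 derived line, so its drug, its dose and the history of its derivation cannot be told apart. The labels leave unsaid whether replicate libraries came from separate cultures. The p-values therefore speak only of how far these libraries scatter, and that scatter may be technical.

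Plasma cells secrete antibody at a high rate, and their proteasome clears the misfolded protein that this produces. Bortezomib, a reversible peptide boronate, and carfilzomib, an irreversible peptide epoxyketone, both block the chymotrypsin-like site carried by the PSMB5 subunit. Cells that grow in the drug can carry changes in the proteasome, in protein folding, in survival signalling or in how far they keep the plasma cell state.

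Reads on genes ran from 49097494 to 72288680 per mouse library and from 31709636 to 58419576 per human one, and a count of 0 allows up to 3 counts, which equal 0.0415 to 0.0611 and 0.0514 to 0.0946 CPM. Intervals and limits here cover counting error only, and a value after ± is the SD over 3 libraries unless marked SE. Plasma cell markers stood at 2 CPM or more for 8 of 9 genes in both 5TGM1 groups, 9 of 10 in naive and bortezomib-resistant 8226 and 10 of 10 in carfilzomib-resistant 8226. Their summed level ran from 6634 to 6847 CPM in naive and 9010 to 9406 CPM in bortezomib-resistant 5TGM1. In 8226 it ran from 8199 to 9177 CPM in naive, 4156 to 4318 CPM in bortezomib-resistant and 5668 to 5881 CPM in carfilzomib-resistant libraries. No gene of a proteasome subunit was among the 32. PSMB5 itself read 70.8, 68.2 and 74.7 CPM in naive and 39.6, 39.7 and 39.5 CPM in bortezomib-resistant 5TGM1. It read 75.3, 71.9 and 78.4 CPM in naive, 153, 142 and 159.8 CPM in bortezomib-resistant and 80.9, 85.8 and 77.3 CPM in carfilzomib-resistant 8226. The PSMB5 level was thus lower in every resistant mouse library and higher in every bortezomib-resistant human library than in any naive one.

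The depth of loss differed between the lines. In 5TGM1 the resistant mean was a median 37.9% of naive over the 32 genes, with a range from 0.627% to 49.1%. In 8226 the median was 2.28%, from 0 to 46.4%. Under 10% of naive remained for 3 genes in 5TGM1 and 22 in 8226, and the ratio was the lower one in 8226 for 27 genes and in 5TGM1 for 5. These are the values that chose the genes, so they are given as a description with no test. The depth of loss was not computed for the other genes that met the limit in either line. The difference between the lines is therefore not read as particular to the 32. The resistant and naive libraries did not overlap for any of the 32 in either line, where 33.2% of all 11974 mouse genes tested and 41.6% of all 13910 human genes tested were called lower, and 34% and 38.2% higher. These called shares are another measure than overlap, and the share of all genes without overlap was not counted. The rule limits the group means and so favours this absence of overlap, which is not read as a result. The summed level of the 32 fell from between 1585 and 1592 CPM to between 647 and 654 CPM in 5TGM1, and from between 1967 and 2006 CPM to between 690.5 and 700.0 CPM in 8226. Less RNA per cell and fewer cells that carry it cannot be told apart in such bulk samples.

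**Figure D1:**
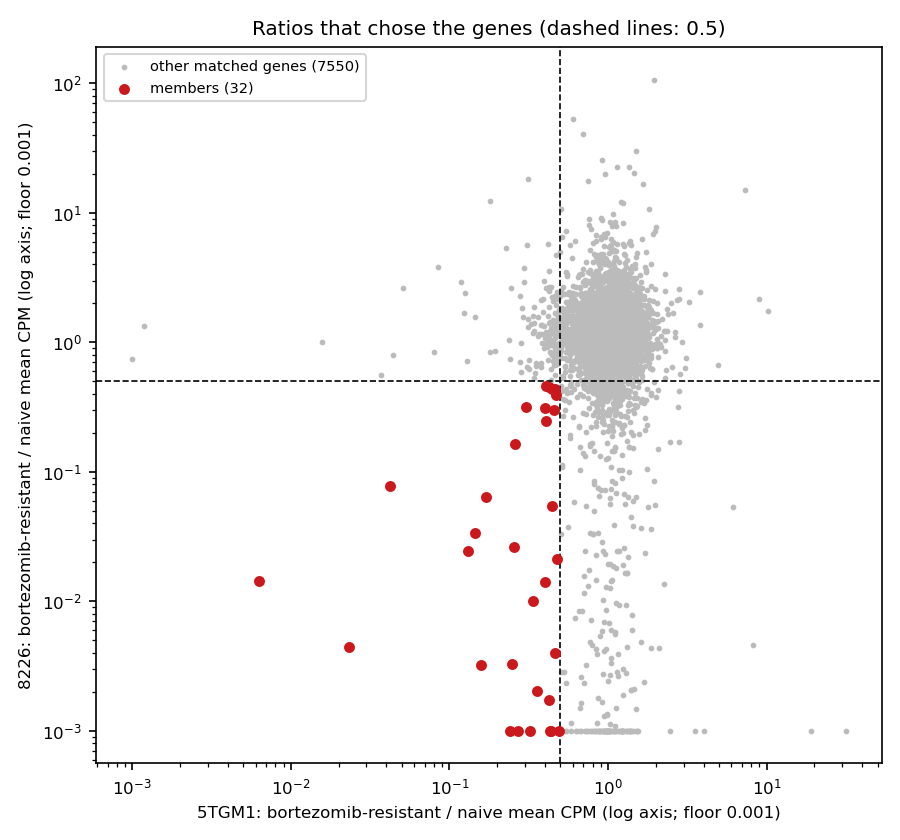
Ratio of the bortezomib-resistant to the naive mean CPM in 5TGM1 (x axis) and 8226 (y axis), both on log axes with ratios below 0.001 drawn at 0.001, for 7582 matched genes. Red points are the 32 chosen genes, which fill the corner below 0.5 on both axes, and they spread far lower along the 8226 axis (median 2.28%) than along the 5TGM1 axis (median 37.9%).

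The carfilzomib-resistant libraries took no part in the choice and showed that the 32 genes did not keep together. Against naive 8226, 21 genes were lower (65.6%), 9 were higher (28.1%) and 2, CD300A and CD180, were not called by edgeR's quasi-likelihood test at an adjusted p under 0.05. Over all 13910 genes tested, 36.7% were lower and 35% were higher. Among the 525 genes that met the 0.5 limit in bortezomib-resistant 8226 but not in 5TGM1, 69.1% were lower and 18.5% were higher. The share that was lower among the 32 was therefore above that of all genes and near that of the other genes lost in bortezomib-resistant 8226. This comparison shares the naive libraries with the rule. The median log2 fold change of the 32 was −1.02, against −0.00 for all genes tested. Carfilzomib-resistant means were at most 0.5 of naive for 16 of the 32, as they were for 4.59% of the 7582 matched genes. They were under 10% of naive for 7 genes and above naive for 10, and 4 of these were at least 2-fold above it. For the 525 genes such shares of the means were not computed, and for all matched genes only the 4.59% was. These counts are therefore not read as a trait of the 32.

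Set directly against bortezomib-resistant 8226, whose libraries the rule also used, the carfilzomib-resistant libraries were higher for 25 of the 32 genes (78.1%) and lower for 3, and 4 were not called. Over all genes tested, 39.9% were higher and 37% were lower. The rule chose genes that were low in bortezomib-resistant 8226, which by itself favours a higher carfilzomib-resistant level. The share among the other genes lost in bortezomib-resistant 8226 was not computed, so the excess over all genes is not read as a trait of the 32. The 3 lower genes were ACPP, HIST1H1C and PIM2, and the 4 with no call were RIPK3, P2RY10, SLC2A3 and HIST3H2A. The summed level of the 32 ran from 1105 to 1161 CPM in carfilzomib-resistant 8226, between the naive and the bortezomib-resistant sums.

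**Figure D2:**
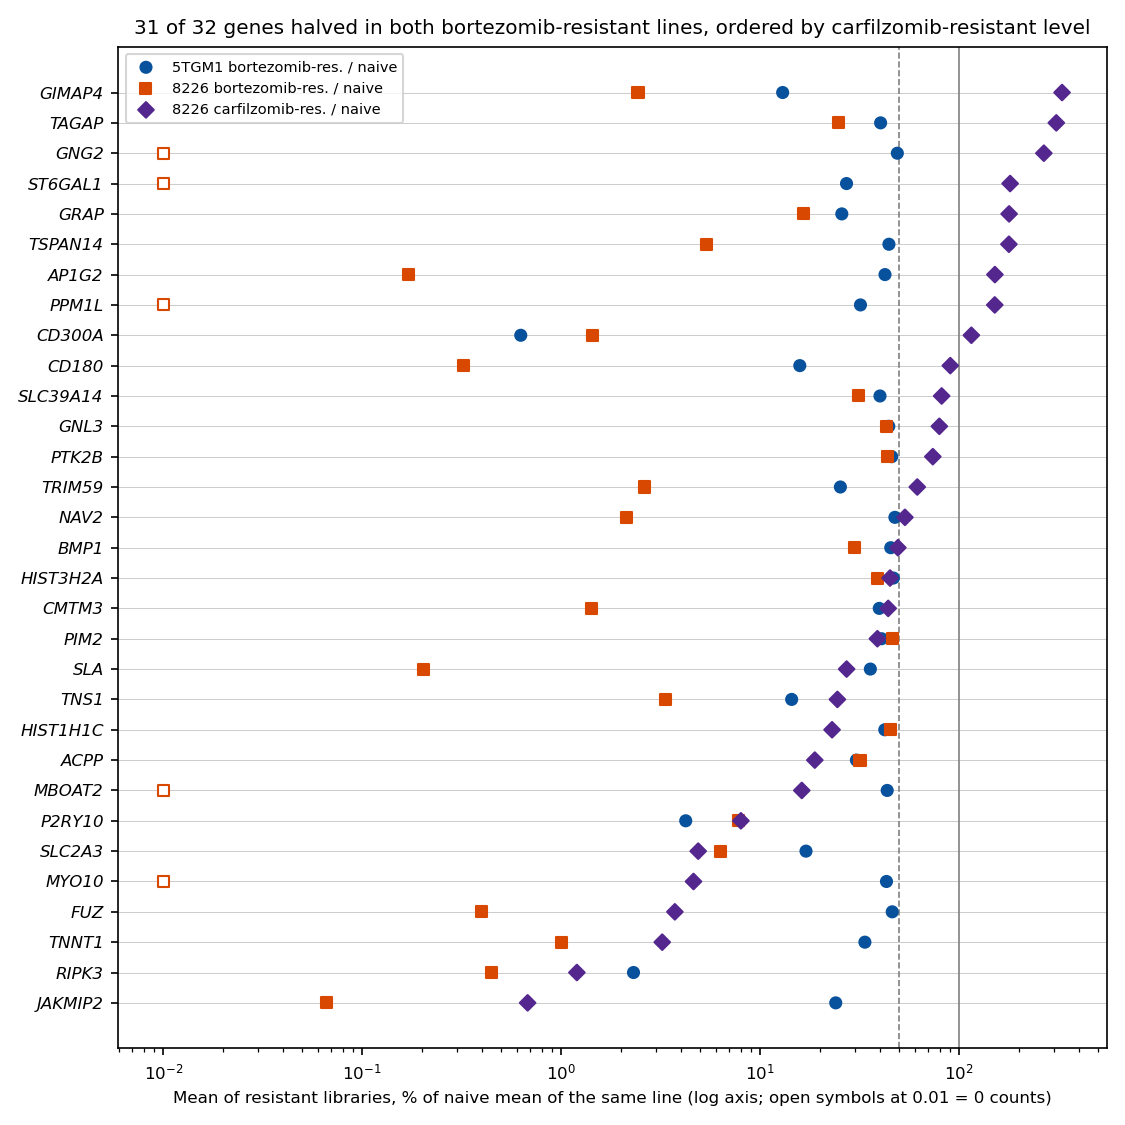
Mean level of 31 of the 32 genes in bortezomib-resistant 5TGM1 (circles), bortezomib-resistant 8226 (squares) and carfilzomib-resistant 8226 (diamonds), as a percentage of the naive mean of the same line on a log axis. Genes are ordered by the carfilzomib-resistant level, open symbols at 0.01 mark 0 counts, and the lines stand at 50% and 100%. Circles and squares lie below 50% by choice, while diamonds run from under 10% for 7 of these genes to above 100% for 9.

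Of the 32 genes, CD300A had the deepest loss that both lines shared. It encodes an inhibitory receptor of leukocytes that carries tyrosine-based inhibitory motifs, and it read 4.20, 4.65 and 5.04 CPM in naive and 0.0180, 0.0691 and 0 CPM in bortezomib-resistant 5TGM1. In 8226 its libraries read 37.8, 40.2 and 41.6 CPM in naive, 0.728, 0.442 and 0.559 CPM in bortezomib-resistant and 46.4, 46.6 and 45.2 CPM in carfilzomib-resistant cells. The resistant means were thus 159-fold and 69.2-fold lower in bortezomib-resistant 5TGM1 and 8226, while all 3 carfilzomib-resistant libraries lay above the naive ones. That last difference was small and not called (log2 fold change 0.15 ± 0.0647 SE, adjusted p = 0.0524). It was called higher in 4 of 13 alternatives: with library size alone, with only the 6 libraries compared, without naive replicate 2 and without naive replicate 3. The adjusted p ran from 0.00854 to 0.207 over them all.

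CD180, a relative of the Toll-like receptors found on B cells, was also lost in bortezomib-resistant 8226, with carfilzomib-resistant levels near naive. It read 12.4, 13.1 and 12.4 CPM in naive and 2.20, 1.87 and 1.95 CPM in bortezomib-resistant 5TGM1. The human libraries read 15.7, 16.6 and 14.9 CPM in naive, 0.0582, 0.0946 and 0 CPM in bortezomib-resistant and 13.5, 13.8 and 15.5 CPM in carfilzomib-resistant cells. Bortezomib-resistant 8226 had almost no CD180 reads, and the ranges of the carfilzomib-resistant and naive libraries overlapped (log2 fold change −0.20 ± 0.0905 SE, adjusted p = 0.056). CD180 was called lower in 5 of 13 alternatives: with DESeq2 size factors, with DESeq2's own test, with only the 6 libraries compared, without naive replicate 3 and without carfilzomib-resistant replicate 3. Its adjusted p ran from 0.0281 to 0.216 over them all.

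P2RY10, a receptor for lysophosphatidylserine coupled to G proteins, was low in all 3 resistant groups. It read 3.63, 3.54 and 3.25 CPM in naive and 0.271, 0.0691 and 0.102 CPM in bortezomib-resistant 5TGM1. Its 8226 libraries read 5.87, 6.003 and 5.79 CPM in naive, 0.379, 0.473 and 0.529 CPM in bortezomib-resistant and 0.356, 0.548 and 0.514 CPM in carfilzomib-resistant cells. The 2 resistant human groups overlapped, and carfilzomib-resistant cells were far below naive (log2 fold change −3.70 ± 0.145 SE, adjusted p = 3.3e-12). The tetraspanin TSPAN14, a partner of the protease ADAM10, went the other way in carfilzomib-resistant 8226. Its mean there was 12.2 ± 0.920 CPM, against 6.86 ± 0.700 CPM in naive and 0.370 ± 0.0927 CPM in bortezomib-resistant 8226 (log2 fold change 0.78 ± 0.0940 SE, adjusted p = 2.3e-06), and in 5TGM1 the means were 31.96 ± 0.923 CPM and 14.2 ± 0.814 CPM. CMTM3, a membrane protein with a MARVEL domain, was lower in carfilzomib-resistant than in naive 8226 (log2 fold change −1.24 ± 0.148 SE, adjusted p = 2.0e-06).

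Several of these receptors are also made by other blood cells, so markers of those cells were read beside them. Macrophage and monocyte markers at 2 CPM or more numbered 2 of 12 in both 5TGM1 groups, 4 of 13 in naive and bortezomib-resistant 8226 and 5 of 13 in carfilzomib-resistant 8226. Their summed level ran from 284 to 289 CPM in naive and 376 to 427 CPM in bortezomib-resistant 5TGM1. In 8226 it ran from 56.0 to 60.1 CPM in naive, 62.6 to 66.7 CPM in bortezomib-resistant and 175 to 187 CPM in carfilzomib-resistant cells. The sum was thus higher than naive in every resistant group. CD163, a single gene of that list, was under 2 CPM in both naive groups and at 0 counts in all 3 resistant groups. B cell markers summed to between 129 and 136 CPM in naive and 148 and 156 CPM in bortezomib-resistant 5TGM1, with 1 of 5 genes at 2 CPM or more in both. In 8226 their sum was between 5.02 and 5.20 CPM in naive, between 0.553 and 0.588 CPM in bortezomib-resistant and between 0.856 and 0.977 CPM in carfilzomib-resistant cells, so it was lower in both resistant groups, and 1, 0 and 0 of 5 genes reached 2 CPM. Erythroid and megakaryocyte markers summed to between 13.8 and 16.2 CPM in naive and 18.2 and 19.9 CPM in bortezomib-resistant 5TGM1. In 8226 they summed to between 3.17 and 5.35 CPM in naive, 0.442 and 0.529 CPM in bortezomib-resistant and 0.374 and 0.445 CPM in carfilzomib-resistant cells. Of these markers, 1 of 8 reached 2 CPM in naive 8226 and 5 were at 0 counts there. T and NK cell markers summed to at most 18.8 CPM in any library. The part of such markers in the receptor values was not tested.

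Other members were adaptors, kinases and GTPase regulators of signalling, grouped by their known roles. A link between them and the receptors above was not tested. SLA, the Src-like adaptor that dampens antigen receptor signalling, read 64.02, 63.6 and 63.7 CPM in naive and 22.5, 23.1 and 23.2 CPM in bortezomib-resistant 5TGM1. The human libraries read 14.8, 15.5 and 13.9 CPM in naive, 0.0582, 0.0315 and 0 CPM in bortezomib-resistant and 4.27, 3.69 and 4.09 CPM in carfilzomib-resistant cells. With 3 counts left over the bortezomib-resistant 8226 libraries, SLA was 492-fold lower (exact 95% counting interval 168 to 2387), against 2.78-fold in 5TGM1. Carfilzomib-resistant cells kept part of it and stayed below naive (log2 fold change −1.93 ± 0.0955 SE, adjusted p = 5.9e-11).

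GRAP, an adaptor related to GRB2, was instead above naive in carfilzomib-resistant 8226. Its mean was 32.8 ± 0.839 CPM in naive and 8.45 ± 0.515 CPM in bortezomib-resistant 5TGM1. In 8226 the means were 4.26 ± 0.507, 0.702 ± 0.180 and 7.63 ± 0.641 CPM in naive, bortezomib-resistant and carfilzomib-resistant cells (log2 fold change 0.78 ± 0.113 SE, adjusted p = 1.6e-05). The near-identical copy GRAPL makes the human GRAP level uncertain. TAGAP, a GTPase activating protein of lymphocytes, rose further. It read 6.95, 6.40 and 6.61 CPM in naive and 2.58, 2.64 and 2.85 CPM in bortezomib-resistant 5TGM1. In the human line the libraries read 8.79, 8.55 and 8.53 CPM in naive, 2.36, 1.73 and 2.32 CPM in bortezomib-resistant and 25.8, 25.7 and 28.6 CPM in carfilzomib-resistant cells. No library of these 3 groups overlapped another group, and the rise over naive was among the 4 of at least 2-fold (log2 fold change 1.57 ± 0.0825 SE, adjusted p = 1.3e-10).

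PTK2B, the calcium-responsive tyrosine kinase PYK2, fell by similar amounts in both bortezomib-resistant lines. It read 183, 199 and 198 CPM in naive and 92.5, 87.6 and 86.7 CPM in bortezomib-resistant 5TGM1. In 8226 it read 107, 99.4 and 98.8 CPM in naive, 43.1, 45.5 and 45.1 CPM in bortezomib-resistant and 76.5, 75.9 and 73.8 CPM in carfilzomib-resistant cells. The carfilzomib-resistant libraries lay between the other groups without overlap, below naive (log2 fold change −0.50 ± 0.0506 SE, adjusted p = 3.4e-07) and above bortezomib-resistant (log2 fold change 0.88 ± 0.0523 SE, adjusted p = 4.0e-10).

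PIM2, a serine/threonine kinase that supports the survival of myeloma cells, was low by a like amount in all 3 resistant groups. It read 169.6, 168 and 174 CPM in naive and 69.3, 71.2 and 68.9 CPM in bortezomib-resistant 5TGM1. Its 8226 libraries read 835, 819 and 842 CPM in naive, 383, 383 and 392 CPM in bortezomib-resistant and 313, 325 and 334 CPM in carfilzomib-resistant cells, so every resistant library was below every naive one (log2 fold change −1.42 ± 0.0481 SE, adjusted p = 5.9e-13 for carfilzomib-resistant against naive). The difference between the resistant human lines was slight (log2 fold change −0.13 ± 0.0474 SE, adjusted p = 0.0244), and its call ended without bortezomib-resistant replicate 1 or 3 or carfilzomib-resistant replicate 1 or 2, and with no filter on low counts. Over 13 alternatives its log2 fold change ran from −0.25 to −0.09 and its adjusted p from 0.000161 to 0.168. Of its paralogs, PIM1 was lower in carfilzomib-resistant than in naive 8226 (log2 fold change −1.19 ± 0.0534 SE, adjusted p = 1.9e-11), and so was PIM3 (log2 fold change −0.80 ± 0.0743 SE, adjusted p = 1.1e-07). In the bortezomib-resistant lines PIM1 was lower in 5TGM1 (log2 fold change −0.27 ± 0.0419 SE, adjusted p = 2.5e-05) and in 8226 (log2 fold change −1.10 ± 0.0540 SE, adjusted p = 3.5e-11), and PIM3 was called in neither (log2 fold change 0.09 ± 0.0451 SE, adjusted p = 0.0769 and log2 fold change −0.13 ± 0.0737 SE, adjusted p = 0.11).

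GNG2, a gamma subunit of heterotrimeric G proteins, and PPM1L, a phosphatase of the PP2C family, had no reads in bortezomib-resistant 8226 and were above naive in carfilzomib-resistant 8226. GNG2 read 41.1, 39.5 and 39.1 CPM in naive and 18.2, 20.1 and 20.5 CPM in bortezomib-resistant 5TGM1. In naive 8226 it read 3.73, 3.66 and 3.56 CPM, and in carfilzomib-resistant cells 9.25, 10.3 and 9.81 CPM (log2 fold change 1.36 ± 0.0904 SE, adjusted p = 1.3e-08). Against 3 counts over the group, GNG2 was at least 122-fold lower in bortezomib-resistant than in naive 8226. PPM1L means were 2.21 ± 0.147 CPM in naive and 0.707 ± 0.183 CPM in bortezomib-resistant 5TGM1, and 2.07 ± 0.254 CPM in naive and 3.14 ± 0.529 CPM in carfilzomib-resistant 8226 (log2 fold change 0.54 ± 0.151 SE, adjusted p = 0.00552). In bortezomib-resistant 8226 PPM1L was at least 69.2-fold below naive.

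**Figure D3:**
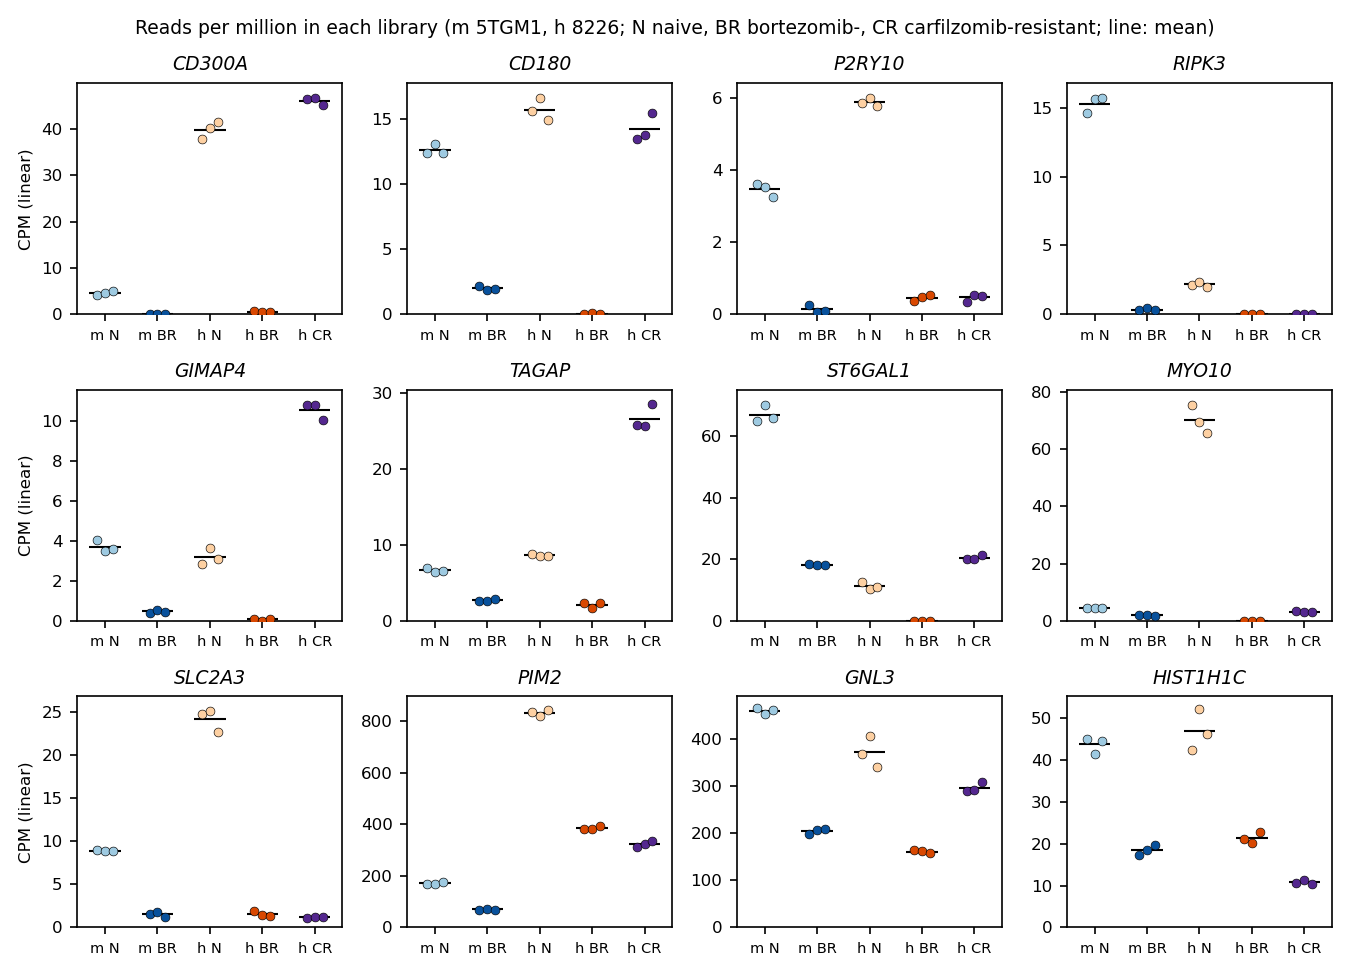
CPM in each library for 12 of the genes on linear axes that start at 0, with 3 points per group and a line at the mean (m 5TGM1, h 8226, N naive, BR bortezomib-resistant, CR carfilzomib-resistant). The human carfilzomib-resistant points lie with or above the naive ones for CD300A, CD180, GIMAP4, TAGAP and ST6GAL1, and with the bortezomib-resistant ones for P2RY10, RIPK3 and SLC2A3.

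Among genes of cell death, RIPK3 was the member. Its kinase drives necroptosis by phosphorylating MLKL, with RIPK1 as its upstream partner. RIPK3 read 14.6, 15.6 and 15.7 CPM in naive and 0.325, 0.432 and 0.305 CPM in bortezomib-resistant 5TGM1. The human libraries read 2.11, 2.39 and 2.02 CPM in naive, 0.0291, 0 and 0 CPM in bortezomib-resistant and 0.0374, 0.0238 and 0.0171 CPM in carfilzomib-resistant cells. The mouse mean was 43.2-fold lower, and with 1 count left the human mean was 224-fold lower (exact 95% counting interval 38.8 to 8630.3). Carfilzomib-resistant cells held 4 counts, also far below naive (log2 fold change −6.30 ± 0.314 SE, adjusted p = 6.4e-11), and the resistant human lines were not told apart at this depth (log2 fold change 1.26 ± 1.10 SE, adjusted p = 0.348). That value was 3.33 without bortezomib-resistant replicate 1, which held the 1 count (a fitted value against 0 counts, not a bound), 0.82 without replicate 2 and 0.79 without replicate 3, and it was called in none of these.

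MLKL, the substrate of RIPK3, went the opposite way. It was higher in bortezomib-resistant 5TGM1 (log2 fold change 0.36 ± 0.0493 SE, adjusted p = 7.8e-06), in bortezomib-resistant 8226 (log2 fold change 0.29 ± 0.0540 SE, adjusted p = 1.7e-04) and in carfilzomib-resistant 8226 (log2 fold change 0.76 ± 0.0533 SE, adjusted p = 4.4e-09). RIPK1 had log2 fold changes of −0.08 (adjusted p = 0.0871, not called), −0.17 (adjusted p = 0.0214) and −0.25 (adjusted p = 0.00192) in the same order. Over the list of BCL2 family and cell death genes, 8 of 27 were lower and 11 higher in bortezomib-resistant 5TGM1, 10 of 33 lower and 15 higher in bortezomib-resistant 8226, and 10 of 33 lower and 16 higher in carfilzomib-resistant 8226. All genes tested were lower and higher in 33.2% and 34%, 41.6% and 38.2%, and 36.7% and 35% of cases in these contrasts. Its median log2 fold changes were 0.05, 0.06 and 0.16, beside 0.00, −0.03 and −0.00 for all genes tested.

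GIMAP4, a GTPase of immune cells from a cluster of related genes, was lost in both bortezomib-resistant lines and raised in carfilzomib-resistant 8226. It read 4.03, 3.51 and 3.62 CPM in naive and 0.415, 0.570 and 0.468 CPM in bortezomib-resistant 5TGM1. In the human line the libraries read 2.84, 3.66 and 3.10 CPM in naive, 0.116, 0 and 0.118 CPM in bortezomib-resistant and 10.8, 10.8 and 10.1 CPM in carfilzomib-resistant cells. All 3 carfilzomib-resistant libraries exceeded every naive one (log2 fold change 1.66 ± 0.123 SE, adjusted p = 8.1e-09).

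SLC2A3, the neuronal-type glucose transporter GLUT3, read 8.98, 8.88 and 8.82 CPM in naive and 1.59, 1.76 and 1.20 CPM in bortezomib-resistant 5TGM1. In 8226 it read 24.8, 25.2 and 22.7 CPM in naive, 1.89, 1.42 and 1.29 CPM in bortezomib-resistant and 1.14, 1.22 and 1.20 CPM in carfilzomib-resistant cells. All resistant libraries were below all naive ones (log2 fold change −4.41 ± 0.109 SE, adjusted p = 1.4e-14 for carfilzomib-resistant against naive), and the resistant human lines were not told apart (log2 fold change −0.25 ± 0.159 SE, adjusted p = 0.16). This last value moved to −0.07 without bortezomib-resistant replicate 1 and to −0.38 with library size alone, where it was called, and its adjusted p ran from 0.0405 to 0.767 over 13 alternatives. The close copy SLC2A14 makes the human level uncertain.

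SLC2A1, the widely expressed glucose transporter GLUT1, did not follow SLC2A3. It was higher in bortezomib-resistant 5TGM1 (log2 fold change 0.51 ± 0.0496 SE, adjusted p = 1.3e-07), not called in bortezomib-resistant 8226 (log2 fold change −0.10 ± 0.0618 SE, adjusted p = 0.135) and higher in carfilzomib-resistant 8226 (log2 fold change 0.73 ± 0.0612 SE, adjusted p = 3.6e-08). Over the list of glycolysis and hypoxia genes, 8 of 28 were lower and 19 higher in bortezomib-resistant 5TGM1, against 18 of 32 lower and 7 higher in bortezomib-resistant 8226 and 16 of 32 lower and 9 higher in carfilzomib-resistant 8226. The shares of all genes tested were 33.2% lower and 34% higher, 41.6% and 38.2%, and 36.7% and 35% in these contrasts. The medians of the list were 0.43, −0.25 and −0.22, beside 0.00, −0.03 and −0.00 for all genes.

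SLC39A14, which imports zinc and iron, was largely kept in carfilzomib-resistant 8226. It read 92.001, 103 and 97.4 CPM in naive and 41.6, 37.9 and 37.7 CPM in bortezomib-resistant 5TGM1. Its 8226 libraries read 183, 165 and 187 CPM in naive, 53.6, 57.4 and 56.6 CPM in bortezomib-resistant and 144, 141 and 154 CPM in carfilzomib-resistant cells. The carfilzomib-resistant libraries lay just below the naive ones (log2 fold change −0.35 ± 0.0569 SE, adjusted p = 5.5e-05).

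In the secretory pathway, ST6GAL1, the Golgi enzyme that caps N-glycans with alpha-2,6-linked sialic acid, had no reads in bortezomib-resistant 8226 and was above naive in carfilzomib-resistant 8226. It read 64.9, 70.1 and 65.8 CPM in naive and 18.5, 18.2 and 18.04 CPM in bortezomib-resistant 5TGM1. Naive 8226 read 12.7, 10.4 and 10.9 CPM, bortezomib-resistant 8226 had 0 counts in all 3 libraries, and carfilzomib-resistant 8226 read 20.1, 20.04 and 21.4 CPM. ST6GAL1 was at least 378-fold lower in bortezomib-resistant than in naive 8226, at least 685-fold higher in carfilzomib-resistant than in bortezomib-resistant 8226, and above naive in every carfilzomib-resistant library (log2 fold change 0.79 ± 0.0825 SE, adjusted p = 1.3e-06). The opposite strand of ST6GAL1 held 8 reads in bortezomib-resistant 8226, so counts without regard to strand are not 0 there. ST3GAL6, which adds sialic acid in another linkage, was lower in bortezomib-resistant 5TGM1 (log2 fold change −1.73 ± 0.296 SE, adjusted p = 7.6e-05), in bortezomib-resistant 8226 (log2 fold change −0.56 ± 0.0596 SE, adjusted p = 4.2e-07) and in carfilzomib-resistant 8226 (log2 fold change −1.70 ± 0.0615 SE, adjusted p = 1.3e-12). Over the list of Golgi, glycosylation and vesicle traffic genes, 10 of 35 were lower and 15 higher in bortezomib-resistant 5TGM1, 16 lower and 14 higher in bortezomib-resistant 8226, and 10 lower and 19 higher in carfilzomib-resistant 8226. Beside these stand 33.2% lower and 34% higher of all mouse genes, 41.6% and 38.2% of all human genes in the bortezomib contrast, and 36.7% and 35% in the carfilzomib contrast. List medians were 0.04, −0.09 and 0.14, beside 0.00, −0.03 and −0.00.

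AP1G2, a gamma adaptin of vesicle coats, fell 2.35-fold in 5TGM1, from 81.4 ± 1.54 to 34.6 ± 0.849 CPM. The human libraries read 11.6, 10.7 and 11.8 CPM in naive, 0.0291, 0 and 0.0294 CPM in bortezomib-resistant and 17.2, 18.6 and 15.95 CPM in carfilzomib-resistant cells. With 2 counts left, bortezomib-resistant 8226 was 582-fold below naive (exact 95% counting interval 157 to 4696), and every carfilzomib-resistant library was above naive (log2 fold change 0.54 ± 0.0806 SE, adjusted p = 2.2e-05). On the opposite strand of AP1G2 lay 528 reads in bortezomib-resistant 8226, or 99.6% of its stranded reads there, against 390 in naive (21.1%). Counted without regard to strand, the log2 fold change of carfilzomib-resistant over bortezomib-resistant 8226 was 2.65 in place of 9.66. MBOAT2, which reacylates lysophospholipids, had means of 2.28 ± 0.290 CPM in naive and 0.993 ± 0.103 CPM in bortezomib-resistant 5TGM1. It fell from 3.61 ± 0.340 CPM in naive 8226 to 0 counts in bortezomib-resistant cells, at least 120.4-fold, and to 0.586 ± 0.00850 CPM in carfilzomib-resistant ones (log2 fold change −2.68 ± 0.153 SE, adjusted p = 2.5e-09). BMP1, a protease that matures procollagen, had means of 29.97 ± 0.720 and 13.6 ± 0.718 CPM in 5TGM1 and 26.1 ± 0.973, 7.77 ± 0.107 and 12.9 ± 0.460 CPM in naive, bortezomib-resistant and carfilzomib-resistant 8226 (log2 fold change −1.08 ± 0.0636 SE, adjusted p = 5.0e-10). ACPP, an acid phosphatase, was lower still in carfilzomib-resistant than in bortezomib-resistant 8226 (log2 fold change −0.63 ± 0.101 SE, adjusted p = 3.9e-05), from 25.05 ± 2.65 CPM in naive to 7.98 ± 0.446 and 4.73 ± 0.270 CPM.

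Genes of the cytoskeleton and cell adhesion were low in carfilzomib-resistant 8226 too, though to different degrees. MYO10, the myosin that carries cargo along filopodia, read 4.52, 4.41 and 4.49 CPM in naive and 1.97, 2.18 and 1.67 CPM in bortezomib-resistant 5TGM1. Naive 8226 read 75.3, 69.5 and 65.7 CPM, bortezomib-resistant 8226 had 0 counts and carfilzomib-resistant 8226 read 3.39, 3.17 and 3.20 CPM. The loss in bortezomib-resistant 8226 was at least 2340.3-fold, the largest such bound among the 5 genes at 0 counts, against 2.31-fold in 5TGM1. Carfilzomib-resistant cells were below naive (log2 fold change −4.49 ± 0.0823 SE, adjusted p = 1.5e-14) and at least 108-fold above bortezomib-resistant ones.

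JAKMIP2, which encodes a coiled-coil protein named for binding Janus kinases and microtubules, had the lowest carfilzomib-resistant level relative to naive of the 32. It read 4.13, 4.57 and 4.09 CPM in naive and 0.884, 0.829 and 1.36 CPM in bortezomib-resistant 5TGM1. In the human line the libraries read 45.7, 46.3 and 39.8 CPM in naive, 0.0874, 0 and 0 CPM in bortezomib-resistant and 0.281, 0.238 and 0.377 CPM in carfilzomib-resistant cells. Both resistant human groups were far below naive (log2 fold change −7.22 ± 0.159 SE, adjusted p = 4.1e-15 for carfilzomib-resistant). The carfilzomib-resistant libraries were above the bortezomib-resistant ones (log2 fold change 3.34 ± 0.646 SE, adjusted p = 2.2e-04), whose 3 counts all lay in replicate 1, and without that replicate the fitted log2 fold change was 6.75, a value against 0 counts and not a bound.

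TNS1, a tensin that links integrins to actin, was at 2.59 ± 0.137 and 0.373 ± 0.0451 CPM in naive and bortezomib-resistant 5TGM1. In 8226 its means were 8.62 ± 0.884, 0.289 ± 0.0812 and 2.11 ± 0.471 CPM in naive, bortezomib-resistant and carfilzomib-resistant cells (log2 fold change −2.07 ± 0.136 SE, adjusted p = 1.9e-09). NAV2, a neuron navigator protein, was also lower in carfilzomib-resistant than naive 8226 (log2 fold change −0.96 ± 0.0955 SE, adjusted p = 2.6e-07), as was TNNT1, the slow skeletal troponin T (log2 fold change −4.99 ± 0.141 SE, adjusted p = 7.2e-14). TNNT1 read 6.87, 7.09 and 7.07 CPM in naive, 0.0582, 0.0946 and 0.0588 CPM in bortezomib-resistant and 0.225, 0.214 and 0.240 CPM in carfilzomib-resistant 8226, with no overlap between groups.

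Genes with nuclear products had shallow losses that were alike in the lines. GNL3, the nucleolar protein nucleostemin that takes part in ribosome production, read 466, 453 and 462 CPM in naive and 197, 207 and 209 CPM in bortezomib-resistant 5TGM1. In 8226 it read 368, 406 and 341 CPM in naive, 164, 161 and 157 CPM in bortezomib-resistant and 289, 292 and 309 CPM in carfilzomib-resistant cells. The resistant mean was 2.25-fold lower in 5TGM1 and 2.31-fold lower in bortezomib-resistant 8226, and carfilzomib-resistant cells lay between (log2 fold change −0.39 ± 0.0623 SE, adjusted p = 4.6e-05 against naive and log2 fold change 1.01 ± 0.0634 SE, adjusted p = 8.2e-10 against bortezomib-resistant). In the list of MYC targets and ribosome biogenesis genes, 21 of 31 were lower and 1 higher in bortezomib-resistant 5TGM1, with a median of −0.26, and 24 of 31 lower and 1 higher in bortezomib-resistant 8226, with a median of −0.50. In carfilzomib-resistant 8226, 7 of 31 were lower and 8 higher, with a median of −0.01. For all genes tested the shares lower and higher were 33.2% and 34% in 5TGM1, 41.6% and 38.2% in bortezomib-resistant 8226 and 36.7% and 35% in carfilzomib-resistant 8226, with medians of 0.00, −0.03 and −0.00. SRM, the spermidine synthase in that list, was lower in all 3 contrasts (log2 fold change −0.65 ± 0.0393 SE, adjusted p = 3.6e-10, then log2 fold change −1.60 ± 0.0719 SE, adjusted p = 1.2e-11, and log2 fold change −0.30 ± 0.0697 SE, adjusted p = 0.0012 for carfilzomib).

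HIST1H1C, the linker histone H1.2, was lower in carfilzomib-resistant than in bortezomib-resistant 8226. It read 45.2, 41.5 and 44.6 CPM in naive and 17.4, 18.5 and 19.8 CPM in bortezomib-resistant 5TGM1. Its 8226 libraries read 42.6, 52.2 and 46.3 CPM in naive, 21.2, 20.2 and 22.8 CPM in bortezomib-resistant and 10.7, 11.4 and 10.4 CPM in carfilzomib-resistant cells. The 3 human groups did not overlap (log2 fold change −2.18 ± 0.0848 SE, adjusted p = 3.1e-12 against naive and log2 fold change −0.86 ± 0.0871 SE, adjusted p = 2.4e-07 against bortezomib-resistant). HIST3H2A, a core histone, was lower than naive in carfilzomib-resistant 8226 (log2 fold change −1.21 ± 0.140 SE, adjusted p = 1.5e-06). In the list of replication-dependent and linker histones, 9 of 15 were lower and 1 higher in bortezomib-resistant 5TGM1 (median −0.59), 11 of 11 were lower in bortezomib-resistant 8226 (median −1.32), and 9 of 11 were lower and 1 higher in carfilzomib-resistant 8226 (median −1.18). The corresponding shares of all genes were 33.2% lower and 34% higher, 41.6% and 38.2%, and 36.7% and 35%, with medians of 0.00, −0.03 and −0.00. Histone genes have near-identical copies, so their levels are uncertain.

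TRIM59, a membrane-anchored E3 ubiquitin ligase, read 17.3, 15.2 and 17.1 CPM in naive and 3.97, 4.54 and 4.07 CPM in bortezomib-resistant 5TGM1. The human libraries read 93.9, 88.9 and 98.3 CPM in naive, 2.59, 2.55 and 2.20 CPM in bortezomib-resistant and 56.8, 57.7 and 59.3 CPM in carfilzomib-resistant cells. Carfilzomib-resistant cells kept most of it, with no overlap with naive (log2 fold change −0.76 ± 0.0557 SE, adjusted p = 7.8e-09). FUZ, a protein of planar polarity and cilium formation, fell from 3.49 ± 0.462 to 1.61 ± 0.0839 CPM in 5TGM1. In 8226 it fell from 4.88 ± 0.704 CPM to 2 counts in bortezomib-resistant cells and to 0.182 ± 0.0708 CPM in carfilzomib-resistant ones (log2 fold change −4.83 ± 0.220 SE, adjusted p = 2.1e-11). More reads lay on the opposite strand of FUZ than on its own, and it did not meet the 0.5 limit in counts made without regard to strand.

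**Figure D4:**
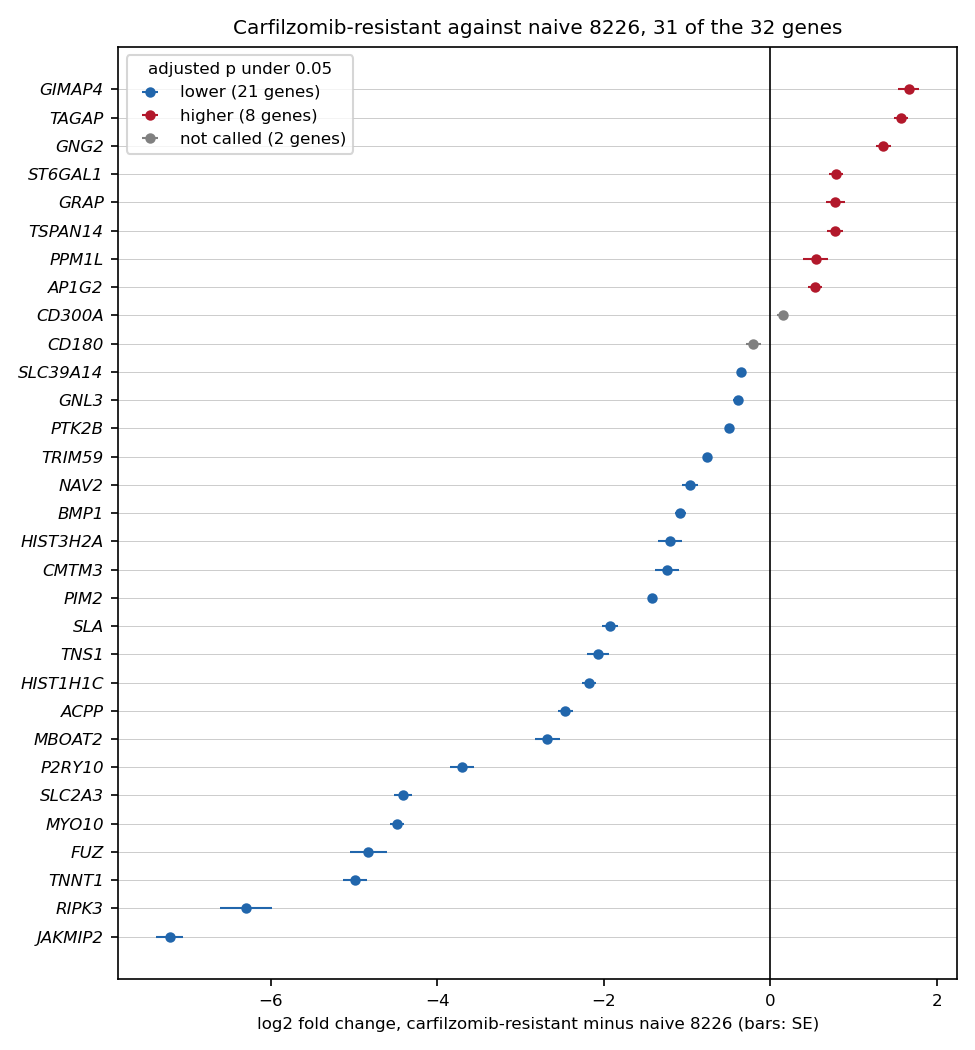
Log2 fold change of carfilzomib-resistant minus naive 8226 (x axis) for 31 of the 32 genes with bars of 1 SE, coloured by the call of edgeR's quasi-likelihood test. The 21 lower genes run from JAKMIP2 at −7.22 to SLC39A14 at −0.35, the 8 higher genes shown run up to GIMAP4 at 1.66, and CD300A and CD180 lie near 0.

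The limit of 0.5 falls inside a run of genes with like values. Just inside stood FUZ, PIM2, HIST3H2A, NAV2 and GNG2, whose larger ratio of the lines was 0.463, 0.464, 0.469, 0.477 and 0.491. Just outside stood TANC2 at 0.502, ZMIZ1 at 0.504, BCL2L11 at 0.506, ATXN7 at 0.510 and CDH24 at 0.510. BCL2L11 encodes BIM, a protein that promotes apoptosis, and its means fell from 16.3 to 8.23 CPM in 5TGM1 and from 158 to 73.3 CPM in 8226, with 111 CPM in carfilzomib-resistant cells. Leaving out replicate 1 of every group took GNG2 and PPM1L from the list, and leaving out replicate 2 or replicate 3 took NAV2.

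The 5 genes at 0 counts in all bortezomib-resistant 8226 libraries are shown with the 250 bases before a RefSeq start (GRCh38.p14). They were shown because no read of them was left and these windows differ widely in CG content. Other starts of the same genes were not examined, so a window need not belong to the start in use. Each sequence runs 5′ to 3′ on the strand of the gene, with CG dinucleotides in capitals. The windows are ST6GAL1 at chr3:186930276-186930525 (plus strand), PPM1L at chr3:160870348-160870597 (plus), MYO10 at chr5:16936289-16936538 (minus), MBOAT2 at chr2:9003685-9003934 (minus) and GNG2 at chr14:51825924-51826173 (plus).
ST6GAL1: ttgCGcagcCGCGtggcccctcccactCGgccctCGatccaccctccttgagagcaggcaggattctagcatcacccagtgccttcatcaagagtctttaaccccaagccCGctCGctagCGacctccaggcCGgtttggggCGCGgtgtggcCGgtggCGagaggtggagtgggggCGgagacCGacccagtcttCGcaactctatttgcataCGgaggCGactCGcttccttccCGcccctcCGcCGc
PPM1L: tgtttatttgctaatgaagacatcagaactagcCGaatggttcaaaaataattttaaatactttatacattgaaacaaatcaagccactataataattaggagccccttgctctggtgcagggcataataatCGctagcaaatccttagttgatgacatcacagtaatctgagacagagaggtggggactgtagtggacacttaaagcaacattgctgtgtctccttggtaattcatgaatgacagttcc
MYO10: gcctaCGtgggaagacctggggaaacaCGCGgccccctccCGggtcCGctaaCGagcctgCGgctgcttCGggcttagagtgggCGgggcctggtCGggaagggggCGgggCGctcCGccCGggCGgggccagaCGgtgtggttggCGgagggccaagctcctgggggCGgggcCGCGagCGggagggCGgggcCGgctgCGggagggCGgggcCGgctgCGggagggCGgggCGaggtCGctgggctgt
MBOAT2: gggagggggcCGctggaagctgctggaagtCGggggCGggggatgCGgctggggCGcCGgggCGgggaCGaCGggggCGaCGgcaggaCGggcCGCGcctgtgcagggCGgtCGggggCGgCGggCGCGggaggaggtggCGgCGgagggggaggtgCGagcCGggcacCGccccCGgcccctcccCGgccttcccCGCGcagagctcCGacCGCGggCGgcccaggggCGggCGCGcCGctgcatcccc
GNG2: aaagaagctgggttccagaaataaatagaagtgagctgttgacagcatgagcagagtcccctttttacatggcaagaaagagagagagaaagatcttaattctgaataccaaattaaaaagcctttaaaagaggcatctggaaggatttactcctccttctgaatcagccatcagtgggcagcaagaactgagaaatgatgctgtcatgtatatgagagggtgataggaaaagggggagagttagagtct
The windows hold 22, 2, 30, 37 and 0 CG dinucleotides in that order. MYO10 and MBOAT2, whose windows shown were the most CG-dense, stayed below naive in carfilzomib-resistant 8226, while ST6GAL1, PPM1L and GNG2 were above it. This order was seen after the values, holds only for the windows shown and was not tested.

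Promoter windows of 300 bases (250 before to 50 after the start) were matched for 25 of the 32 genes. A window was counted as CG-rich at a GC content of at least 50% and an observed to expected CG ratio of at least 0.6. This held for 11 of 25 (44%), beside 46.9% of all 35114 RefSeq windows. The sets are unlike: the 25 are 1 window each from genes read in both naive lines, while the 35114 were not filtered by expression. Other starts of the 25 genes were not examined. Among the 8 matched genes with 3 or fewer counts in bortezomib-resistant 8226, 3 were CG-rich. Motif letters were searched on both strands. The E-box CACGTG, bound by MYC among others, was in 1 of 25 windows against 7.26% of all, and the GC box GGGCGG was in 12 (48%) against 44.95%. The CCAAT box, searched as CCAAT, was in 9 (36%) against 34.6%, and the ETS core CGGAAG was in 5 (20%) against 19.5%. TATAAA was in 2 (8%) against 11.5%, and the CRE core TGACGT was in 2 (8%) against 7.98%. No motif in this set contains another. A match of letters is a description, not a binding site, and the shares were not tested against each other.

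Some genes that flank the 32 were low in bortezomib-resistant 8226 too. In the RefSeq order of coding genes, 63 genes within 2 places of a member reached 2 CPM in naive 8226 and were not members themselves. Of these, 15 (23.8%) were at most 0.5 of naive in bortezomib-resistant 8226, beside 1468 of 10974 human genes at 2 CPM or more (13.4%). The median ratio of the flanking genes was 0.957, beside 1.11 for all. This is a description of the contrast that chose the members, with no test.

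Named flanking genes varied in carfilzomib-resistant 8226. Next to GIMAP4, GIMAP6 had means of 2.91, 0.00971 and 14.2 CPM in naive, bortezomib-resistant and carfilzomib-resistant 8226, and GIMAP2 had means of 9.10, 4.19 and 15.1 CPM. Near CD300A, the activating receptor CD300C had means of 2.60, 0 and 2.46 CPM. B3GALNT1, beside PPM1L, had means of 2.39, 0 and 10.9 CPM. These genes were thus low in bortezomib-resistant and near or above naive in carfilzomib-resistant cells, as their neighbours among the 32 were. BASP1, beside MYO10, had means of 15.5, 0.0291 and 0 CPM, and IGFBP5, near TNS1, had means of 30.3, 0.0194 and 0.0517 CPM, low in both resistant lines. DPYSL3, beside JAKMIP2, had means of 5.16, 0.0202 and 72.4 CPM, so it stood far above naive in carfilzomib-resistant cells, where JAKMIP2 was lost. C10ORF58, beside TSPAN14, had means of 7.16, 0.00971 and 0.00571 CPM, though TSPAN14 was above naive in carfilzomib-resistant cells. MAST4, beside CD180, had means of 47.4, 1.36 and 12.8 CPM, though CD180 was near naive in carfilzomib-resistant cells. The genes named here were chosen after their values were seen. CD300C and CD300A, like the GIMAP genes, are similar in sequence, which makes their levels uncertain.

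**Figure D5:**
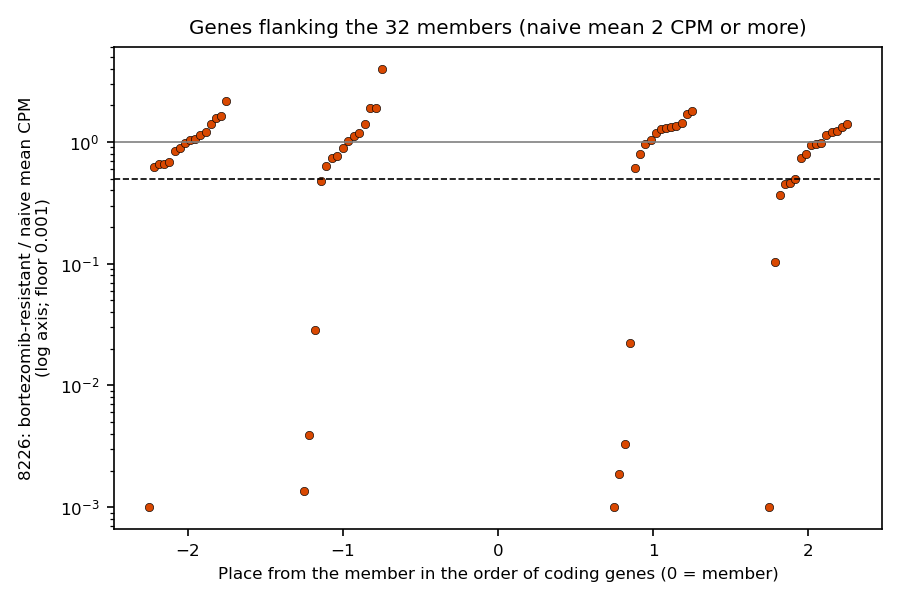
Ratio of the bortezomib-resistant to the naive mean CPM in 8226 (log axis, ratios below 0.001 drawn at 0.001) for 63 coding genes that flank the 32, by their place from the member in RefSeq gene order. The dashed line stands at 0.5, and 15 genes lie at or below it.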

How the data were processed

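RNA was sequenced from 5 groups of 3 libraries, grouped by their titles. The authors deposited a whole-number read count per gene for each library, in STAR's layout. STAR and the builds mm10, hg19, GRCm38 and GRCh37 are named in the submitters' processing notes, and versions are not given in the sources used here. Column 4, the strand that holds almost all stranded reads (the other column held 1.43% to 2.12%), was used, and the first 4 rows, which are totals outside genes, were left out. Reads mapping to several places, which the counting sets aside, made up 15.3% to 16.3% of reads in mouse and 8.95% to 10.9% in human libraries.

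CPM here is a count divided by its library's total on genes. Differences were tested in R 4.3.3 with edgeR 4.0.16 (TMM, filterByExpr, quasi-likelihood F test, Benjamini-Hochberg adjustment over 13910 human or 11974 mouse genes, call at an adjusted p under 0.05), with all 9 human libraries in 1 fit. Every one of the 32 genes passed the low-count filter in both species. The SE of a fold change is its size over the root of its F value. The fit was tested on simulated data. DESeq2 1.42.0 served as an alternative. A ratio with 1 to 3 counts in a group carries an exact binomial interval at 95% confidence, and one against 0 counts is a bound at 3 counts over the group.

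The genes named with full values were the 15 with the deepest shared loss, the 10 with the highest naive level in both lines, those in one of 37 gene lists, the 5 nearest each side of the limit, the 8 lowest and 8 highest in carfilzomib-resistant 8226, the 5 largest and 5 smallest gaps between the lines, and PSMB5. The members, lists and this rule were chosen with earlier results of these data known. Role groups and further named genes were chosen after values were seen. Promoter sequences and gene order are from RefSeq (GRCh38.p14), which is not the build of the counts, so gene coordinates were not used. The values of 1 of the 32 genes, of 1 marker and of 1 gene list are not reported here, and that gene stays in the counts, medians and sums.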

Additional observations from a re-analysis of the deposited data

Results flagged for a closer look

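Reads on the strand opposite to a member gene were not used in the choice of genes or in the main tests. They entered above only as values of single genes and in counts without regard to strand. For 4 genes they were higher in every library of a resistant 8226 group than in any naive 8226 library. The share of all genes with such a difference was not counted, so the 4 are not read as a trait of the members. FUZ had 19.4 ± 0.659 CPM (SD, n = 3) of such reads in bortezomib-resistant and 9.31 ± 2.74 CPM in naive 8226, from 1942 and 1187 counts. AP1G2 had 5.28 ± 0.180 CPM in bortezomib-resistant and 3.06 ± 0.397 CPM in naive 8226, from 528 and 390 counts. TAGAP had 0.152 ± 0.0665 CPM against 0.0300 ± 0.0261 CPM, from 15 and 4 counts. NAV2 had 0.217 ± 0.0491 CPM in carfilzomib-resistant 8226, from 34 counts, and 0 counts in naive 8226. The differences were not tested.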

How the results depend on the processing

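The list held 32 genes, and only a naive minimum of 5 CPM moved its size by more than 1.5 times, to 15 genes, all among the 32. At a naive minimum of 1 CPM it held 44 genes. TMM scaling gave 36 and DESeq2 size factors 37, each with all 32. Without regard to strand it held 32, of which 31 were shared. Requiring the highest resistant library to be at most 0.5 of the lowest naive one left 25. Leaving out replicate 1, 2 or 3 of every group gave 32 to 37 genes, with 30 to 31 of the 32. Over all alternatives, 21 to 22 of the 32 were lower and 9 to 10 higher in carfilzomib-resistant than in naive 8226, and 2 to 4 were lower and 22 to 25 higher than in bortezomib-resistant 8226, the 22 with only the 6 libraries compared, where 28 were tested. The replicate numbers do not pair the libraries, since deviations of same-numbered libraries correlated from −0.105 to 0.156, and with a replicate block the counts were 21 lower and 9 higher against naive and 3 lower and 25 higher against bortezomib-resistant 8226. For single genes, 813 values kept direction and call, 10 became called, 5 lost the call and 0 reversed. The calls that moved were those of CD300A, CD180, SLC2A3 and PIM2, and their cause was not tested. Library size alone shifted the median of all genes by −0.10 between the resistant 8226 lines. Depth limits the 11 genes with 3 or fewer counts in bortezomib-resistant 8226 to bounds or wide intervals.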
